A study of Mus musculus with 12 samples.

Results

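The genes described are 10 enzymes and receptors of the endocannabinoid system, listed by role with earlier results of these data known. They are 10 of the 25128 genes and unmatched targets that were measured on mouse arrays. Napepld, Dagla and Daglb make endocannabinoids, Faah, Naaa, Mgll, Abhd6 and Abhd12 break them down, and Cnr1 and Cnr2 are their receptors. Each was read by 3 probes against a single transcript, which gives 30 probes in all.

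RNA was measured in 3 immortalized mouse lines, none of which received a treatment, so that basal message levels were read. N18 is a neuroblastoma line, BV2 is a microglial line that was kept toward its resting state, and AtT20 is sold as a pituitary tumor line. All 3 were cultured alike, in DMEM with FBS and antibiotics. Each line is represented by 4 plates that were grown and extracted separately, with 1 single-color array per plate and 12 arrays in all. A line is a single culture stock, so the spread between plates is the spread within that stock. Each value is also an average over the cells of a plate, and fewer cells with a message and less message per cell cannot be told apart.

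Endocannabinoids are lipids that cells release on demand from their membranes, and the best known are anandamide and 2-arachidonoylglycerol (2-AG). Both act on CB1, the receptor that in brain sits mainly on nerve terminals and damps transmitter release, and on CB2, which is best known from immune cells such as microglia. Their action is short because hydrolases inside the target cell or its neighbours cleave them, and which hydrolase does so differs between cell types.

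The promoter sequences of both receptors and of Napepld are shown to set the receptors, which were above the detection threshold in different lines, beside the synthesis enzyme that shared the line of Cnr2. Each is the 250 bases before the start of the gene from RefSeq (GRCm38.p6), read 5′ to 3′ on the strand of the gene. Cnr1 lies at chr4:33924014-33924263 (plus strand), Cnr2 at chr4:135894939-135895188 (plus strand) and Napepld at chr5:21701623-21701872 (minus strand). RefSeq windows were found for 8 of the 10 genes, 13 windows in all, and for genes with several starts the window of lowest coordinate is shown. Capitals mark the letters GGGCGG and AGGAAG, or CCGCCC and CTTCCT where the motif lies on the other strand.
Cnr1: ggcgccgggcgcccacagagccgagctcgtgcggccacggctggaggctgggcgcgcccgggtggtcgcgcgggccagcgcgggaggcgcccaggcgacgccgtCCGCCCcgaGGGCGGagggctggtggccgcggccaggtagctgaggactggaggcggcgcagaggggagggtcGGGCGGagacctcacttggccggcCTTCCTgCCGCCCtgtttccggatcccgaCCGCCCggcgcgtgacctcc
Cnr2: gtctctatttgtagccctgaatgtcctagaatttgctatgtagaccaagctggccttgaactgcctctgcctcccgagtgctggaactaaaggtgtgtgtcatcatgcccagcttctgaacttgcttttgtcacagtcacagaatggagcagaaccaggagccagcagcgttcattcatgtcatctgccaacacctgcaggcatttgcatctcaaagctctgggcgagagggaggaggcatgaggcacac
Napepld: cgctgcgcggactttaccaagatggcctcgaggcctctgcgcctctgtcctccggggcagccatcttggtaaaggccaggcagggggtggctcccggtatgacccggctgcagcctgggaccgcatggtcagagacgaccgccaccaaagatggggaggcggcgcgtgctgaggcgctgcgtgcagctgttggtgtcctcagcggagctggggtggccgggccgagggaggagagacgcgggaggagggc
The printed Cnr1 window held 36 CG pairs and the Napepld window 21, against 3 in the Cnr2 window and a median of 6.0 (quartiles 2 to 16) over all 32851 windows of this length. GGGCGG, a GC box, was in 32.7% of all windows on either strand, AGGAAG, letters found in many sites of the Ets family, in 29.5%, and TATAAA in 12.4%. The other Cnr1 windows held 28 and 5 CG pairs, and the other Cnr2 window 3. GGGCGG occurred 5 times in the printed Cnr1 window and AGGAAG once, and neither occurred in the other windows of Cnr1 or in those of Cnr2 and Napepld. TATAAA was in none of the 13 windows. A match is a description of the letters and not of a bound site.

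Levels are in log2 units. The probes of a gene were averaged on each plate, and the mean of 10 seminal proteins of the same plate, which stand for no expression, was subtracted. A gene was above the threshold of a line when the mean of its 4 plates exceeded 2 SD of the seminal proteins. The threshold was 0.37 ± 0.11 (SD, n = 4 plates) for AtT20, 0.56 ± 0.15 for BV2 and 0.74 ± 0.10 for N18. Levels of different genes come from different probes and are not set against each other.

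Markers of the labelled cell type were largely present in BV2 and N18 and largely absent on the plates labelled AtT20. Of 9 microglial markers, 8 were above the threshold in BV2, with a summed level of 31.5 to 37.0 per plate. On the N18 plates, 2 of them, Itgam and Tyrobp, were above, with a sum of 2.06 to 2.86, and none was above on the plates labelled AtT20. Of 10 neuroblastoma markers, 9 were above in N18 (sum 25.7 to 29.0), against 5 in BV2 (4.04 to 6.25) and 5 on the plates labelled AtT20 (3.16 to 9.41). Of 8 corticotroph markers only Pitx1 was above on the plates labelled AtT20, where their sum was 0.09 to 0.99, and Pomc, which encodes the precursor of ACTH, had a level of 0.29 ± 0.26 (SD, n = 4), below the threshold. In N18, 4 of these 8 were above, with a sum of 9.94 to 11.2. In BV2, 2 were above, Pomc (0.67) and Tbx19 (1.43), with a sum of 1.29 to 1.59. Of 8 genes that every cell uses, 7 were above in each line. Their sum was lower on the plates labelled AtT20, at 17.4 to 24.2, against 31.3 to 36.9 in BV2 and 35.3 to 38.0 in N18. The AtT20 arrays also had a narrower spread, with an interquartile range of 0.38 to 0.78 on the log2 scale against 1.28 to 2.21 on the other 8 arrays. After quantile normalization these plates instead varied more among themselves, with a median SD over genes of 0.25 against 0.11 in BV2 and 0.08 in N18, while the fit shares a single estimate of the spread over the lines. Fitted without them, the calls between N18 and BV2 over all genes and targets went from 4775 higher and 5495 lower in N18 to 6509 and 9000. Comparisons with these plates are given under 3 scalings.

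Of the 10 genes, 7 were above the threshold in N18, 6 in BV2 and 3 on the plates labelled AtT20. The share of all genes and targets above the threshold was 55.4%, 53.3% and 35.0% in the same order. Dagla, Naaa and Abhd12 were above in all 3 lines, and Mgll was above in none. Daglb, Abhd6 and Cnr1 were above only in N18, and Napepld and Cnr2 only in BV2. Faah was above in BV2 and N18. These calls were repeated under 7 other definitions of the level or threshold. The call was unchanged under all of them for 4 of the 7 genes in N18, 3 of the 6 in BV2 and 2 of the 3 on the plates labelled AtT20. No gene below the threshold passed it under another definition in any line.

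**Figure D1:**
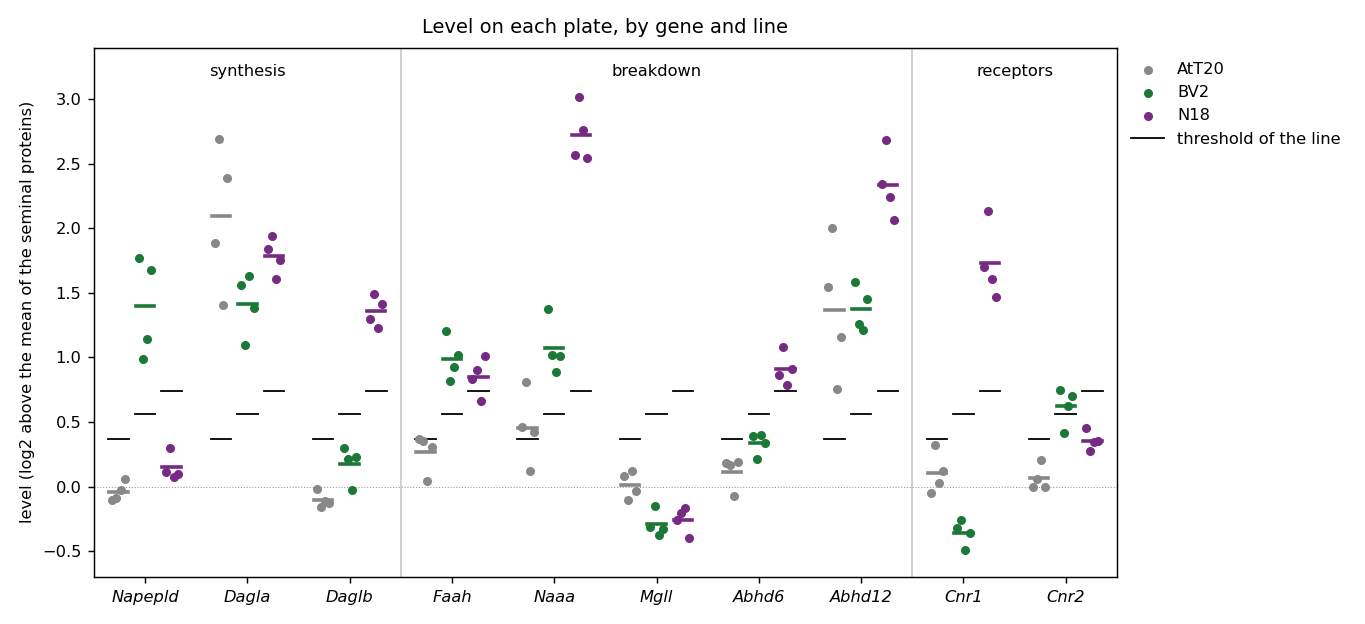
Level of each gene (log2 above the mean of the seminal proteins) on each plate, with synthesis enzymes on the left, breakdown enzymes in the middle and receptors on the right. Points are plates (4 per line), colored bars are means and black bars are the threshold of the line. Daglb, Abhd6 and Cnr1 rise above the threshold only in N18, and Napepld and Cnr2 only in BV2.

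A gene above the threshold in a single line is not thereby shown to differ between lines, so the difference of N18 and BV2 was tested directly. After quantile normalization of the 12 arrays and a fit in limma, 4 of the 10 genes were higher in N18 (Daglb, Naaa, Abhd12 and Cnr1) and 2 were higher in BV2 (Napepld and Faah) at a Benjamini-Hochberg adjusted p under 0.05. Over all genes and targets, 40.9% passed this test, 19.0% with a higher value in N18 and 21.9% with a higher value in BV2. The median difference of the 10 genes was 0.12 on the log2 scale, beside -0.06 over all genes and targets. The latter was 0.15 without normalization and 0.18 relative to the seminal proteins, and the share of all calls that were higher in N18 was 80.2% and 74.7% there, against 46.5% after quantile normalization. Dagla, Mgll, Abhd6 and Cnr2 did not pass. The direction and the call were kept without normalization and relative to the seminal proteins for 5 of the 6, all except Faah. The levels of the 2 lines did not overlap on any plate for 6 genes, 5 higher in N18 and 1 in BV2, where 38.0% and 12.7% of all genes and targets (50.7% in all) did not overlap in these directions.

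**Figure D2:**
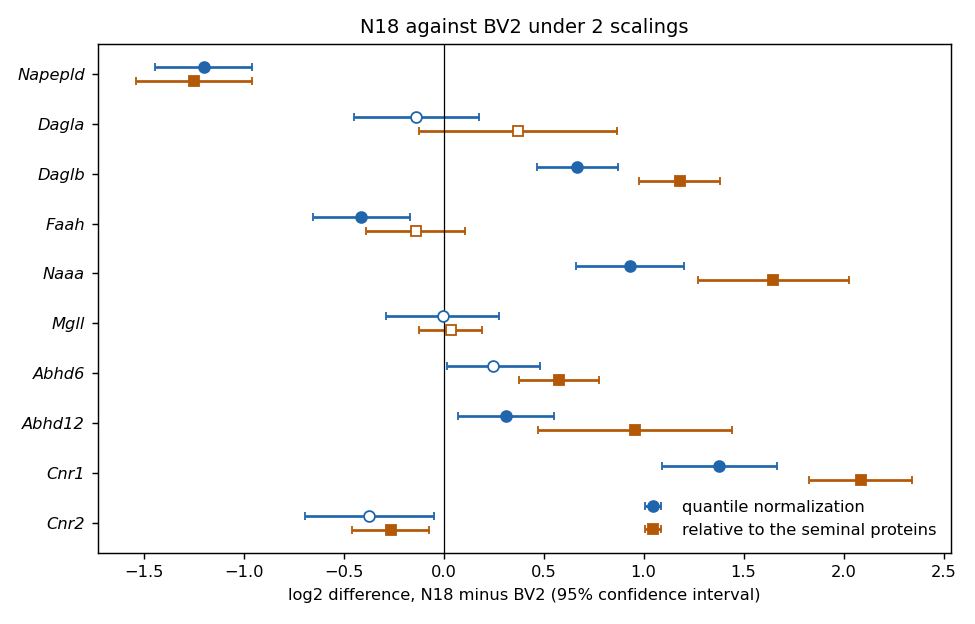
Difference of N18 and BV2 in log2 units (positive is higher in N18) with 95% confidence intervals, after quantile normalization (circles) and relative to the seminal proteins (squares), with filled symbols for an adjusted p under 0.05 in limma. Napepld lies below 0 under both scalings and Daglb, Naaa, Abhd12 and Cnr1 above 0 under both, while Faah passes only after quantile normalization and Abhd6 and Cnr2 only relative to the seminal proteins.

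Among the enzymes of synthesis, Napepld (transcript NM_178728) encodes the phospholipase D that releases anandamide and related N-acylethanolamines from their membrane precursors. Its level was 1.77, 0.99, 1.14 and 1.68 on the 4 BV2 plates, with a mean of 1.40 ± 0.39 (SD, n = 4). On the N18 plates it was 0.11, 0.30, 0.08 and 0.10, and on the plates labelled AtT20 it was -0.10, -0.09, -0.02 and 0.06. Every BV2 plate was above the threshold and above every plate of the other lines. All 3 probes of Napepld were above the threshold in BV2, with mean levels of 1.06, 1.70 and 1.34, and none was in the other lines. The difference was -1.20 (95% confidence interval -1.45 to -0.96, N18 minus BV2, quantile normalized, limma adjusted p = 2.82e-07). Since N18 was below its threshold, the message was at least 1.5-fold higher in BV2, a bound taken from the threshold of N18 as the smallest of the bounds under 3 scalings. The difference passed under all 9 alternatives tried for it, with values of -1.90 to -1.19.

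The 2 diacylglycerol lipases, which make 2-AG, were unlike each other. Dagla (NM_198114), whose product makes most of the 2-AG of the brain, was above the threshold in all 3 lines. Its level was 1.84, 1.94, 1.61 and 1.76 on the N18 plates, 1.56, 1.09, 1.63 and 1.38 in BV2 and 1.89, 2.70, 1.40 and 2.39 on the plates labelled AtT20. The means were 1.79 ± 0.14, 1.42 ± 0.24 and 2.09 ± 0.57 (SD, n = 4), and the ranges of the 3 lines overlapped. P02470 of Dagla was below the threshold in N18 (0.43) and BV2 (0.29), and the other probes were above it in each line. The difference of N18 and BV2 did not pass the test (-0.14, 95% confidence interval -0.45 to 0.18, limma adjusted p = 0.494), and it was 0.37 relative to the seminal proteins (adjusted p = 0.2005). The first interval does not show that the lines were alike.

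Daglb (NM_144915), the related lipase known from macrophages and microglia, was above the threshold only in N18. Its level was 1.29, 1.49, 1.23 and 1.42 on the N18 plates (mean 1.36 ± 0.12, SD, n = 4). The BV2 plates had 0.30, 0.21, -0.03 and 0.23, and the plates labelled AtT20 had -0.02, -0.16, -0.12 and -0.13. No plate of these lines reached the lowest N18 plate. The mean of Daglb exceeded that of BV2 by 0.67 (95% confidence interval 0.47 to 0.87, limma adjusted p = 2.54e-05) and the message was at least 1.2-fold higher in N18. The separate probes were not uniform. In N18, P02593 had a level of 1.93 and P02467 of 1.27, while P02715 was at 0.52 and below the threshold. In BV2, P02593 alone was above the threshold (0.61). Each of the 3 probes was higher on every N18 plate than on any BV2 plate.

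Among the enzymes of breakdown, Naaa (NM_025972) differed most between N18 and BV2 after quantile normalization. It encodes the lysosomal acid amidase that prefers palmitoylethanolamide, a relative of anandamide. Its level was 2.57, 3.02, 2.76 and 2.54 on the N18 plates (mean 2.72 ± 0.22, SD, n = 4) and 1.38, 1.02, 0.89 and 1.01 on the BV2 plates (1.07 ± 0.21). Every N18 plate was above every BV2 plate, and both lines were above their thresholds on each plate. The difference was 0.93 (95% confidence interval 0.66 to 1.20, limma adjusted p = 1.75e-05) and 1.65 relative to the seminal proteins, and it passed under all 9 alternatives. All 3 probes were above the threshold in N18 (1.18, 2.73 and 3.44). In BV2, P00708 and P01072 were above (1.10 and 1.66) and P00420 was not (-0.01). The plates labelled AtT20 had 0.46, 0.81, 0.12 and 0.43, of which 2 exceeded the threshold. Without plate 2 of these, the mean fell from 0.45 to 0.34, which is below the threshold.

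Faah (NM_010173) encodes the fatty acid amide hydrolase that ends the action of anandamide in neurons. Its level was 1.21, 0.82, 0.93 and 1.02 on the BV2 plates (mean 0.99 ± 0.17, SD, n = 4) and 0.83, 0.90, 0.66 and 1.01 in N18 (0.85 ± 0.15). The plates of these lines overlapped. The plates labelled AtT20 had 0.37, 0.35, 0.05 and 0.30, with a mean below the threshold. Detection rested on 1 of the 3 probes, P03146, which was at 1.60 in N18, 1.68 in BV2 and, on the plates labelled AtT20, 0.56. The other probes of Faah were at 0.17 to 0.50 in BV2 and N18 and below the thresholds. In N18 the call was lost under 5 of the 7 other definitions, and in BV2 under 2. After quantile normalization Faah was lower in N18 by limma (-0.41, 95% confidence interval -0.65 to -0.17, adjusted p = 0.0085). Relative to the seminal proteins the difference was -0.14 (adjusted p = 0.334), and without normalization it was -0.17 (adjusted p = 0.55).

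Abhd12 (NM_024465) and Abhd6 (NM_025341) encode serine hydrolases that take the part of 2-AG that monoacylglycerol lipase leaves, Abhd6 from the inner face of the plasma membrane. The level of Abhd12 was 2.35, 2.68, 2.25 and 2.06 on the N18 plates (mean 2.33 ± 0.26, SD, n = 4). It was 1.58, 1.26, 1.21 and 1.45 on the BV2 plates (1.38 ± 0.17) and 1.55, 2.00, 0.76 and 1.16 on the plates labelled AtT20 (1.37 ± 0.53). All plates were above the thresholds, and relative to the seminal proteins every N18 plate was above every plate of the other lines. After quantile normalization every plate labelled AtT20 was instead above every N18 plate, with N18 minus AtT20 at -0.87 (limma adjusted p = 3.16e-06). Without normalization it was -0.42 (limma adjusted p = 0.0683). The difference of N18 and BV2 was small after quantile normalization (0.31, 95% confidence interval 0.07 to 0.55, limma adjusted p = 0.0383) and larger relative to the seminal proteins (0.96, adjusted p = 0.00169). It passed under all 9 alternatives and was lost with any of 6 plates left out. The adjusted p was then 0.0787, 0.096 and 0.0822 without BV2 plate 1, 3 or 4 and 0.0791, 0.111 and 0.0992 without N18 plate 1, 2 or 3. On the plates labelled AtT20, P00469 of Abhd12 was at 0.01, where it was at 1.13 in BV2 and 2.35 in N18, while the other probes were above the threshold in each line.

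The level of Abhd6 was 0.86, 1.08, 0.79 and 0.91 on the N18 plates (mean 0.91 ± 0.13, SD, n = 4). It was 0.39, 0.21, 0.40 and 0.33 on the BV2 plates and 0.18, 0.16, -0.07 and 0.19 on the plates labelled AtT20. Relative to the seminal proteins, the N18 plates did not overlap with those of the other lines. After quantile normalization they overlapped with the plates labelled AtT20 (N18 minus AtT20 -0.08, limma adjusted p = 0.525). Without normalization that difference was -0.60 (limma adjusted p = 0.00253). Each of the 3 probes was higher on every N18 plate than on any BV2 plate. Even so, the difference of N18 and BV2 did not pass after quantile normalization (0.25, 95% confidence interval 0.01 to 0.48, limma adjusted p = 0.0844). It passed under 4 of the 9 alternatives, relative to the seminal proteins (0.58, adjusted p = 4.13e-05), without normalization (adjusted p = 0.0135), and after quantile normalization with array weights (adjusted p = 0.000641) or without the plates labelled AtT20 (adjusted p = 0.00233). Leaving out only plate 3 of those labelled AtT20 sufficed (adjusted p = 0.0152). The call above the threshold in N18 was lost under 4 of the 7 other definitions.

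Mgll (NM_011844) encodes monoacylglycerol lipase, which in brain clears most 2-AG. It was below the threshold on all 12 plates. Its level was -0.26, -0.20, -0.16 and -0.40 in N18, -0.31, -0.15, -0.37 and -0.33 in BV2 and 0.08, -0.11, 0.12 and -0.04 on the plates labelled AtT20. None of its 3 probes was above the threshold in any line, and the highest, P03778, was at 0.08 to 0.19. None of the 7 other definitions put it above the threshold. Values this low are within the range of the seminal proteins, so that the message was not detectable with these probes, and no fold is given.

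**Figure D3:**
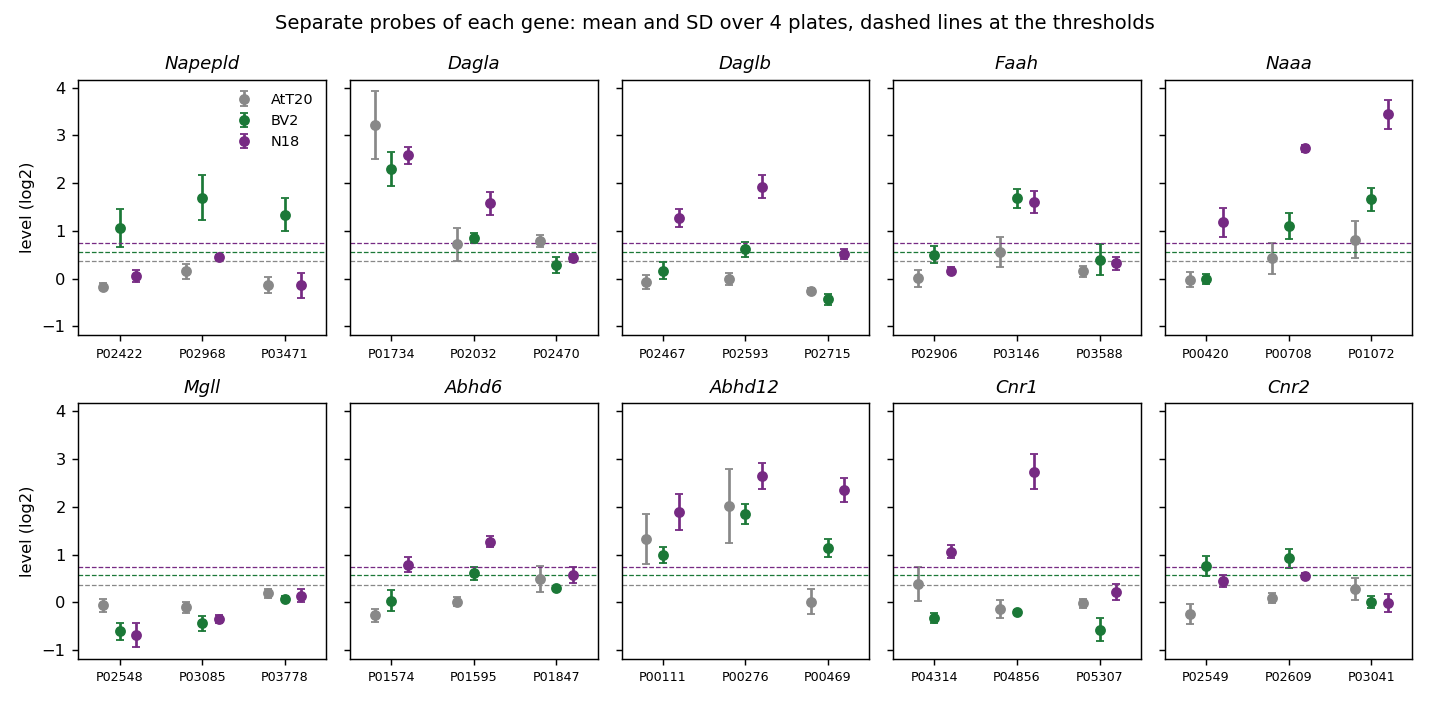
Level of each separate probe (log2 above the mean of the seminal proteins), as the mean and SD of the 4 plates of each line, with dashed lines at the thresholds in the color of the line. The 3 Napepld probes all exceed the threshold in BV2, Faah exceeds it through P03146 alone and P05307 of Cnr1 stays below it in N18.

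Of the receptors, Cnr1 (NM_007726), which encodes CB1, was above the threshold only in N18. Its level was 1.70, 2.13, 1.61 and 1.47 on the N18 plates, with a mean of 1.73 ± 0.29 (SD, n = 4). The BV2 plates had -0.32, -0.26, -0.49 and -0.36, and the plates labelled AtT20 had -0.05, 0.32, 0.03 and 0.12. Every N18 plate was above every plate of the other lines. The difference of N18 and BV2 was 1.38 (95% confidence interval 1.09 to 1.67, limma adjusted p = 3.68e-07), and it ranged from 0.93 to 2.55 over the 9 alternatives and passed under each. The message was at least 1.4-fold higher in N18. The 3 probes gave very different levels in N18, 2.74 for P04856, 1.06 for P04314 and 0.21 for P05307, and the last was below the threshold. All 3 were higher on every N18 plate than on any BV2 plate. On the plates labelled AtT20, P04314 was above the threshold (0.39, with 2 plates above their own) and the other probes of Cnr1 were not. The window printed above lies before the Cnr1 start of lowest coordinate and is the richest in CG pairs of its 3.

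Cnr2 (NM_009924), which encodes CB2, had its highest levels in BV2, at 0.75, 0.41, 0.62 and 0.70, of which 3 exceeded the threshold. The mean of 0.62 ± 0.15 (SD, n = 4) was close to the threshold of 0.56. The call was lost with olfactory receptor genes as controls, with 3 SD and with all 4 plates required. P02609 and P02549 of Cnr2 were above the threshold in BV2 (0.93 and 0.76), and P03041 was at 0.01. In N18 these 2 probes were at 0.55 and 0.45, below the higher threshold of that line, and P02549 overlapped between the lines. The difference of N18 and BV2 (-0.37, 95% confidence interval -0.69 to -0.05, limma adjusted p = 0.0606) missed the threshold in the fit of all 12 arrays. It passed under 7 of the 9 alternatives, and with plate 1 (adjusted p = 0.0395) or plate 3 (adjusted p = 0.000625) of those labelled AtT20 left out. Relative to the seminal proteins the highest levels were thus in N18 for Cnr1 and in BV2 for Cnr2. For Cnr2 this did not hold under other scalings, where BV2 minus AtT20 was -0.03 (quantile normalized, limma adjusted p = 0.846) and -0.81 (no normalization, adjusted p = 3.27e-05). For Cnr1, N18 minus AtT20 was 0.53 after quantile normalization (limma adjusted p = 0.002). Without normalization it was 0.23 and did not pass (limma adjusted p = 0.25). The other 2 lines were below their thresholds for each receptor and are not ordered, and the BV2 and N18 plates overlapped for Cnr2 through 1 BV2 plate.

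The genes most like Cnr1 over the 12 normalized arrays were Lhfpl4, with a Pearson correlation of 0.989, Ly75 (0.979) and Fam131b (0.974), and those most like Cnr2 were Serpinb9 (0.955), Cks1brt (0.955) and Asrgl1 (0.942). These are descriptions over arrays that fall into 3 lines. The 3 genes like Cnr1 were high in N18, as Lhfpl4 was at 2.88 in N18, 0.30 in BV2 and 0.56 on the plates labelled AtT20. The 3 genes like Cnr2 had levels of -0.44 to 0.34 in every line, below the thresholds.

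Comparisons with the plates labelled AtT20 depended on the scaling for most of the genes. After quantile normalization, 3 of the 10 genes were higher in N18 than on these plates and 5 were lower, where 27.8% and 48.6% of all genes and targets passed in these directions (76.4% in all). For BV2, 1 was higher and 6 were lower, where 26.6% and 47.0% passed (73.6% in all). Relative to the seminal proteins, 78.8% of all calls were higher in N18 and 74.2% higher in BV2, against 36.4% and 36.2% after quantile normalization and 24.0% and 13.5% without normalization. The median difference over all genes and targets moved likewise, for N18 from -0.85 without normalization to -0.25 after quantile normalization and 0.54 relative to the seminal proteins, and for BV2 from -1.08 to -0.23 and 0.28. The 3 comparisons share plates and are not independent. Because the plates labelled AtT20 varied more than those of the other lines, p-values of comparisons with them from the shared estimate of the spread may be too small.

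Few of the 10 genes passed with the same direction under these 3 scalings, Naaa and Mgll in N18 and Dagla, Mgll and Cnr1 in BV2. Mgll, and Cnr1 in BV2, were below the threshold in both lines compared, so that no difference in message is read from them. Naaa was higher in N18 than on the plates labelled AtT20, by 0.61 after quantile normalization (limma adjusted p = 0.000405), 0.88 without normalization and 2.27 relative to the seminal proteins. Dagla was lower in BV2, with differences of -1.82, -2.04 and -0.68 in the same order. Relative to the seminal proteins its plates overlapped, and its probes were not uniform. P01734 was at 3.22 on the plates labelled AtT20 and 2.30 in BV2, and P02470 at 0.78 and 0.29. P02032 ran the other way, at 0.72 and 0.86. In N18 the difference of Dagla was -1.96, -1.70 and -0.31, the last with an adjusted p of 0.246 in limma. Abhd12 changed direction, with -0.87 after quantile normalization and 0.97 relative to the seminal proteins in N18.

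**Figure D4:**
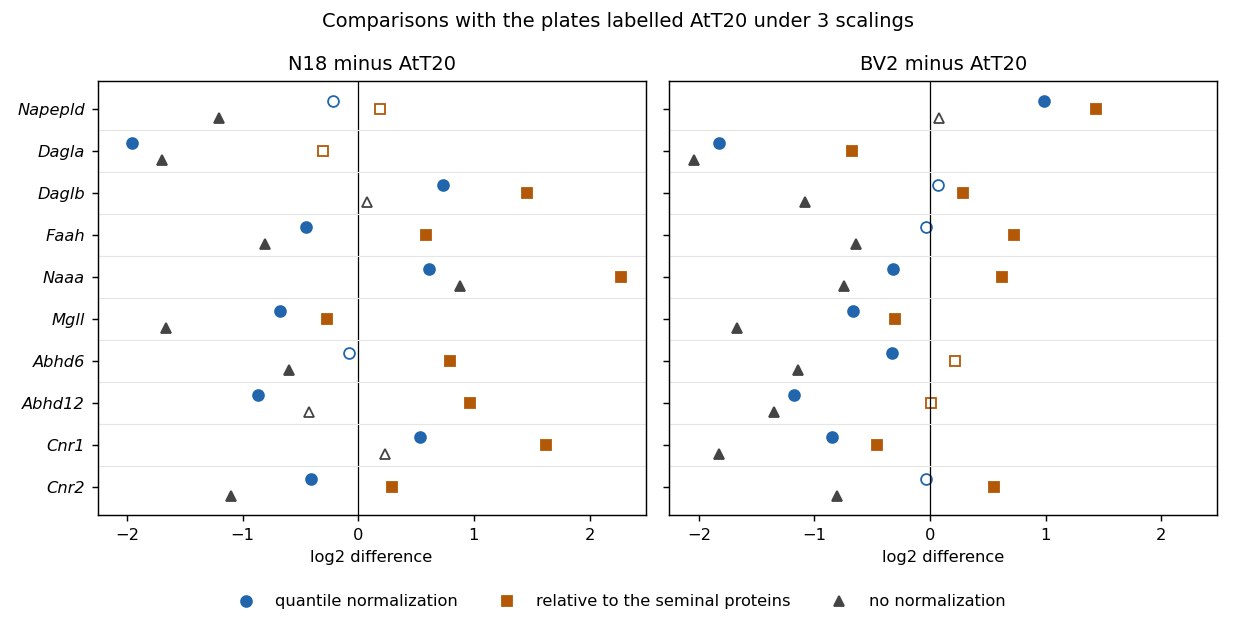
Difference of N18 (left) and BV2 (right) from the plates labelled AtT20 in log2 units under 3 scalings, with filled symbols for an adjusted p under 0.05 in limma. Faah, Abhd12 and Cnr2 lie below 0 after quantile normalization and above 0 relative to the seminal proteins in both panels, while Dagla and Mgll lie below 0 throughout.

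Around these 10 genes, 35 other genes of the pathway with probes were read from a list of alternative synthesis enzymes, phospholipases C, hydrolases, oxygenases, carriers and receptors. Of the 35, 17 were above the threshold in N18, 17 in BV2 and 9 on the plates labelled AtT20. Over all genes and targets the shares were 55.4%, 53.3% and 35.0% in the same order. Between N18 and BV2, 6 were higher in N18 and 13 higher in BV2 after quantile normalization (19.0% and 21.9% over all genes and targets), with a median of -0.22 on the log2 scale beside -0.06 over all genes and targets. The lean to BV2 depended on the scaling, with 10 higher and 11 lower in N18 relative to the seminal proteins and 9 and 7 without normalization. Plaat3, Ces1f and Alox15, among those higher in BV2, were below the threshold in all lines. Against the plates labelled AtT20, 7 were higher and 18 lower in N18, and 9 and 15 in BV2 (27.8%, 48.6%, 26.6% and 47.0% over all genes and targets). The balance turned relative to the seminal proteins, with 16 higher and 11 lower in N18 and 18 and 5 in BV2. The counts by role that follow are after quantile normalization.

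**Figure D5:**
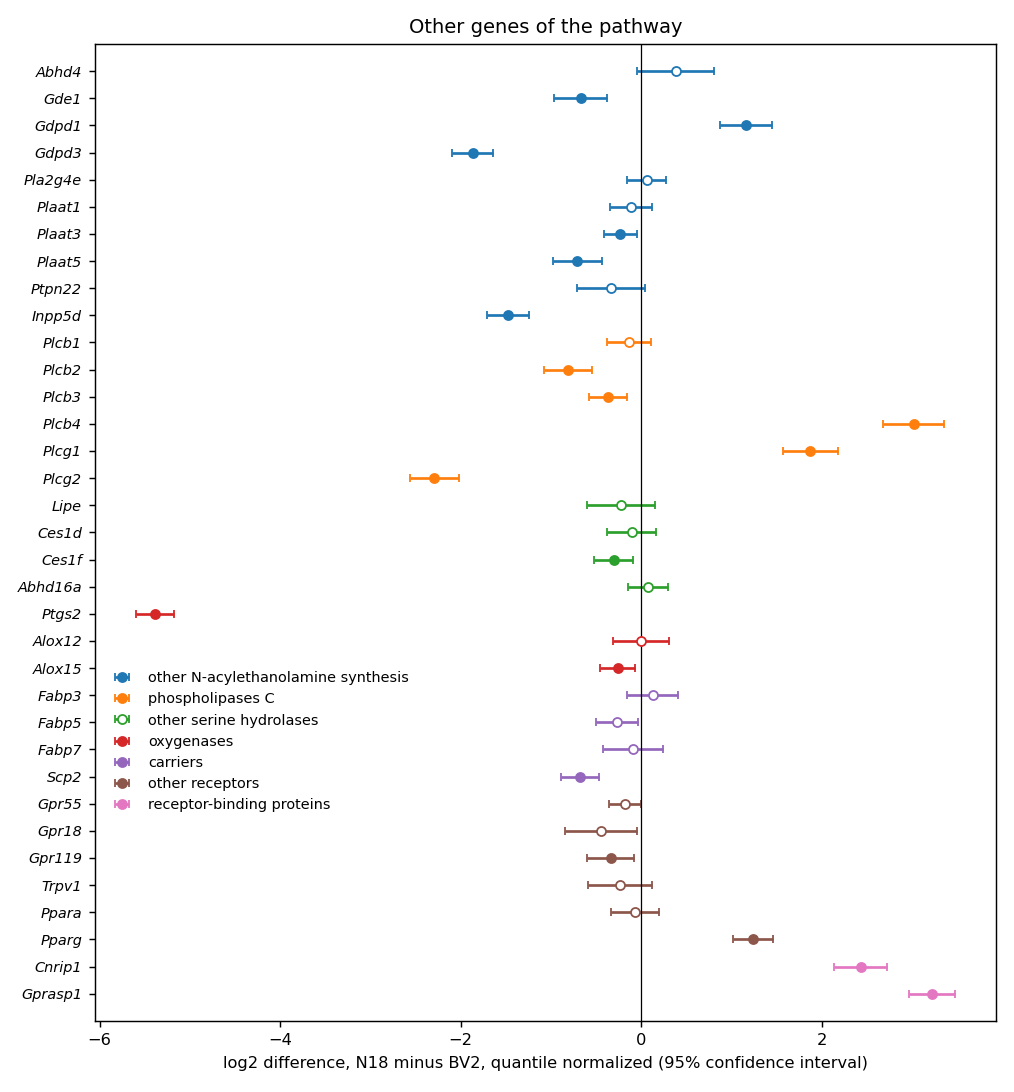
Difference of N18 and BV2 (log2, quantile normalized, positive is higher in N18) with 95% confidence intervals for the 35 other genes of the pathway, colored by role and filled where the adjusted p in limma was under 0.05. Ptgs2 lies at -5.39, and Plcb4, Gprasp1 and Cnrip1 lie beyond 2 on the other side.

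The alternative enzymes of N-acylethanolamine synthesis were split between the lines. Of 10, 5 were higher in BV2, 1 was higher in N18 and 4 did not pass (21.9% and 19.0% higher over all genes and targets). Among the 5, Gde1 did not pass relative to the seminal proteins (-0.05, limma adjusted p = 0.852) or without normalization (-0.08, adjusted p = 0.819). Plaat3, also among them, was below the threshold in all lines. Gdpd3 and Gdpd1 encode related glycerophosphodiesterases that can release N-acylethanolamines without Napepld. The level of Gdpd3 was 2.57 ± 0.30 in BV2 and 0.78 ± 0.13 in N18 (SD, n = 4), a difference of -1.87 (limma adjusted p = 5.16e-10). Gdpd1 ran the other way, at 0.90 ± 0.35 in BV2 and 2.82 ± 0.20 in N18 (1.16, adjusted p = 2.61e-06). No plate of N18 overlapped with BV2 for either gene. Inpp5d, which encodes the inositol phosphatase SHIP1 of blood cells and a member of another route to anandamide, was at 1.27 ± 0.30 in BV2 and -0.40 ± 0.11 in N18, at least 1.4-fold higher in BV2 (adjusted p = 1.24e-08). Abhd4, a hydrolase also listed among these alternative enzymes, was above the threshold only in N18 (1.25 ± 0.31), and its plates did not overlap with those of BV2. Its difference from BV2 did not pass after quantile normalization (0.38, limma adjusted p = 0.143) but passed under 4 of the 9 alternatives, among them relative to the seminal proteins (0.82, adjusted p = 0.000121). Plaat1, an acyltransferase that makes the precursor, was above only on the plates labelled AtT20 (0.90 ± 0.27).

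The phospholipases C, which supply the diacylglycerol that Dagla and Daglb cleave, also differed by isoform. Plcb4 was at 3.63, 4.07, 3.55 and 3.38 in N18 and between -0.40 and -0.18 in BV2, at least 4.7-fold higher in N18 (limma adjusted p = 1.42e-10). Plcg1 was likewise above the threshold only in N18 (3.04 ± 0.20, SD, n = 4), at least 3.2-fold higher than in BV2 (limma adjusted p = 1.60e-08). On the plates labelled AtT20, Plcg1 was just under the threshold (0.36 ± 0.21), with 3 plates above their own. It passed there with the SD taken over plate means, or without plate 4. Plcg2, the isoform of blood cells, was above only in BV2, at 2.90, 2.31, 2.17 and 2.63, against 0.02 to 0.12 in N18, at least 3.3-fold higher (adjusted p = 3.61e-10). Plcb2 was also above only in BV2 (0.76 ± 0.34) and was higher there than in N18 (adjusted p = 6.21e-05), though no bound on the fold could be given and the call above the threshold was lost under 3 of the 7 other definitions. Plcb1 was above only on the plates labelled AtT20 (1.47 ± 0.64). Plcb3 was above in all 3 lines, and its difference between N18 and BV2 turned from -0.37 after quantile normalization (adjusted p = 0.00666) to 0.18 relative to the seminal proteins (adjusted p = 0.437). With it, 2 of the 6 were higher in N18, 3 higher in BV2 and 1 did not pass.

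Of the 3 oxygenases that take up endocannabinoids, only Ptgs2 was above the threshold, and only in BV2. It encodes cyclooxygenase-2, an inducible enzyme that turns 2-AG and anandamide into prostaglandin relatives. Its level was 5.31, 4.87, 4.92 and 5.37 on the BV2 plates, against -0.48 to -0.39 in N18 and -0.10 to -0.04 on the plates labelled AtT20. It was at least 20.7-fold higher in BV2 than in N18 (limma adjusted p = 4.33e-15).

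The list held 2 proteins that bind the tail of cannabinoid receptors, and both were higher in N18 than in BV2. Over all genes and targets 19.0% were higher in N18, and a link to Cnr1 was not tested. Gprasp1, which steers receptors to the lysosome, was at 5.09 ± 0.20 in N18 and 1.29 ± 0.23 in BV2 (SD, n = 4), a difference of 3.22 (limma adjusted p = 2.34e-12). Cnrip1, which encodes a protein that binds CB1, was at 3.10 ± 0.25 in N18, -0.24 ± 0.14 in BV2 and 0.68 ± 0.35 on the plates labelled AtT20. It was at least 3.3-fold higher in N18 than in BV2 (adjusted p = 3.76e-10). Of the 6 other receptors for these lipids, 1 was higher in N18, 1 was higher in BV2 and 4 did not pass. Pparg, a nuclear receptor, was higher in N18 (2.15 ± 0.35 against 0.17 ± 0.07 in BV2, at least 1.8-fold, adjusted p = 5.47e-08). Gpr119 was higher in BV2 (-0.34, limma adjusted p = 0.0363), though it did not pass relative to the seminal proteins (-0.08, adjusted p = 0.605) or without normalization (-0.11, adjusted p = 0.72). Trpv1, an ion channel opened by anandamide, was above only on the plates labelled AtT20 (0.54 ± 0.31), with levels of 0.53 in BV2 and 0.47 in N18. Gpr55 and Gpr18 were below the threshold in all lines. Of the 4 carriers, Scp2 was higher in BV2 (-0.67, limma adjusted p = 3.87e-05), though it did not pass relative to the seminal proteins (-0.32, adjusted p = 0.0923) or without normalization (-0.35, adjusted p = 0.188), and the others did not pass. Likewise, of the 4 other hydrolases, Ces1f was higher in BV2 and the others did not pass.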

How the data were processed

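Total RNA of 4 plates of each of 3 mouse lines was labelled with Cy3 and hybridized to 4-plex NimbleGen arrays of long oligonucleotide probes (MM8 design), with scanning and extraction in GenePix and NimbleScan. The deposited values are log2 intensities that the authors made from the scanned arrays (72000 probes, kept separate), and background correction and normalization between arrays are not given in the sources used here. No 2 arrays held identical values. Groups came from the sample labels, which call the plates biological replicates.

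Probes were grouped into 25631 targets, of which 69.4% were matched to symbols of a RefSeq table (GRCm38.p6), which left 25128 genes and unmatched targets. Levels and thresholds followed the study's methods, from the linear mean of the probes, with targets of a gene averaged and 10 seminal proteins as the zero. After quantile normalization of the probes, a single fit of all 12 arrays (limma 3.58.1 under R 4.3.3, lmFit, then eBayes with a trend) gave the differences between lines. The p-values, all two-sided, were adjusted by Benjamini-Hochberg over the 25128 genes and targets and called under 0.05. A fold against a line below its threshold was bounded by that threshold on each plate, and the smallest of the bounds under the 3 scalings (quantile, seminal proteins, none) is given.

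Alternatives for the threshold were quantile normalization, the median of probes or mean of their log2 values, 3 SD, the SD taken over plate means, controls drawn from olfactory receptor genes, and a demand that all 4 plates pass. For the comparisons they were a normexp background correction (offset 50), no normalization, array weights, levels set against the seminal proteins, the 2 other averages of probes, a fit of the pair's 8 arrays, a replicate block, and a filter for genes above the threshold in at least 1 line. Each plate was also left out in turn. The slide of each array is not given in the sources used here, so no slide term was fitted. If each line was run on its own slide, line and slide cannot be told apart in the differences between lines. The fit was tested on simulated data, also with a spread of its own for each line.

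All 10 genes are reported. Of 36 other genes of the pathway, 35 had probes and Ddhd2 is not analysed here. Values are given for those with an absolute difference of at least 1 between N18 and BV2 that passed, or above the threshold in a single line, and other genes named were chosen after their values were seen. The genes and lists were chosen with earlier results of these data known. Signal over background and 4 arrays per line limit the precision. Tables and plots were made with Python 3.11.15, pandas 2.3.3 and matplotlib 3.10.9.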

Additional observations from a re-analysis of the deposited data

Results flagged for a closer look

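Of 30 groups of 4 plates (10 genes in 3 lines), 2 held a plate whose gap to the others passed the 95% critical value of Dixon's ratio, where chance gives about 1 in 20. Napepld on N18 plate 2 had a level of 0.30, while the other N18 plates had 0.08 to 0.11, a gap of 0.842 of the range. Abhd6 on plate 3 of those labelled AtT20 had a level of -0.0718, while the others had 0.16 to 0.19, a gap of 0.895 of the range. Both genes were below the threshold in these lines with and without these plates.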

How the results depend on the processing

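Counts and calls depended mainly on the controls and, for the plates labelled AtT20, on the scaling. With olfactory receptor genes as controls, the 6 genes above the threshold in BV2 became 3 and the 7 in N18 became 4, and of the other genes of the pathway 3, 8 and 9 were above for AtT20, BV2 and N18 in place of 9, 17 and 17. The 9 for AtT20 became 4 with the median of probes, 5 with 3 SD and 4 with all plates required. The other 46 of 48 counts for the 10 genes and 42 of 48 for the pathway stayed within 1.5 times. Leaving out each plate in turn, 7 genes were above in N18, 6 in BV2 and 2 to 3 on the plates labelled AtT20, and 5 to 8 differed between N18 and BV2.

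Directions turned as follows, in log2 units. Relative to the seminal proteins, N18 minus AtT20 was 0.19 for Napepld, 0.58 for Faah, 0.79 for Abhd6, 0.97 for Abhd12 and 0.29 for Cnr2. BV2 minus AtT20 was 0.72 for Faah, 0.62 for Naaa, 0.22 for Abhd6, 0.0113 for Abhd12 and 0.56 for Cnr2, and N18 minus BV2 was 0.37 for Dagla and 0.0356 for Mgll. Without normalization, Dagla was 0.34 and Mgll 0.0058 for N18 minus BV2, and Daglb was -1.08 for BV2 minus AtT20. With the median of probes, Dagla was 0.22 and Mgll 0.0698 for N18 minus BV2, Abhd6 0.14 for N18 minus AtT20 and Cnr2 0.29 for BV2 minus AtT20. With the mean of log2 probes, Abhd6 was 0.0872 and Cnr2 0.0489 in the same comparisons. With array weights, Mgll was 0.0331 for N18 minus BV2 and Cnr2 0.0318 for BV2 minus AtT20. Of 267 such values, 213 kept direction and call, and the causes of the others were not tested beyond the setting named.

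With a plate left out, BV2 minus AtT20 ran from -0.14 to 0.0581 for Faah (the latter without AtT20 plate 1) and from -0.13 to 0.17 for Cnr2 (the latter without AtT20 plate 3). N18 minus BV2 of Mgll ran from -0.0301 to 0.0265, above 0 without BV2 plate 2 or N18 plate 4. Naaa in BV2 minus AtT20 (-0.32) no longer passed in limma without AtT20 plate 1 or 2 or BV2 plate 3 or 4 (adjusted p 0.0568, 0.102, 0.0804 and 0.0927). Cnr2 in N18 minus AtT20 no longer passed without N18 plate 2 (adjusted p = 0.0562). Napepld and Abhd6 in that comparison passed only without AtT20 plate 1 (adjusted p = 0.0205) and plate 3 (adjusted p = 0.0423).

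Replicate numbers did not pair the plates. Deviations of the 12 same-numbered pairs correlated at -0.105 to 0.319, and 3 plates matched their own number best. With the replicate as a block, 7, 8 and 7 genes differed for N18 minus BV2, N18 minus AtT20 and BV2 minus AtT20, and Cnr2 passed for N18 minus BV2 (-0.37, limma adjusted p = 0.0494), which was the only call among the 10 genes to change. Over all genes and targets, 4775 higher and 5495 lower calls for N18 minus BV2 became 6956 and 9058 with array weights, and 6509 and 9000 with the 8 arrays of the pair. Signal near the seminal proteins limits the calls that other definitions lost.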
